A study of Rattus norvegicus with 67 samples.

Results

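In the sperm of F3 generation rats, 2767 windows of 1000 bp carried few histone H3 reads in at least 3 animals, below 20% of the level of the median animal. These windows are described here one by one, in runs of neighbouring windows, and by the animals that share them. They were chosen among 2615741 windows of chromosomes 1 to 20, from a table of 2782040 windows, with chromosome 1 from 75 to 78 Mb left out. Reads were divided by the animal's total and are given as RPM, the usual unit for reads scaled to a common library size, and the 50 animals with a total of at least 40000000 reads chose the windows. A window was taken where the median over these animals was at least 0.2 RPM, which held for 2300413 windows, and where at least 3 animals were below 20% of that median. Such an animal is called low in that window. The windows make up 0.120% of the windows with that median. The windows were thus selected on these RPM values, and the low values are a description and carry no test.

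During the maturation of sperm most histones are replaced by protamines, which pack the DNA tightly. Histones stay at some sites, and chromatin immunoprecipitation followed by sequencing (ChIP-Seq) with an antibody for histone H3 collects the DNA fragments that are still bound to them. A window can lose its reads where the histone is missing, where the DNA itself is missing, or where its sequence differs so that reads no longer map there. No library of unprecipitated DNA was used here, so these states cannot be told apart, and the windows are only called low.

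The animals were outbred Hsd:Sprague Dawley rats. In the atrazine lineage the F0 females had received 25 mg/kg of the herbicide atrazine by intraperitoneal injection from embryonic day 8 to 14 of their pregnancy, and in the control lineage they had received the vehicle dimethyl sulfoxide (DMSO). The F3 males themselves were not dosed in either lineage. Their disease was assessed at 1 year of age, except late puberty, which was noted during development. Counts were held for 16 control lineage and 50 atrazine lineage animals. The atrazine lineage animals comprised 19 without disease, 5 lean, 3 with kidney disease, 4 with testis disease, 5 with late puberty and 14 with multiple disease. Of the control lineage animals, 9 had no disease, 3 were obese, 1 had kidney disease, 1 late puberty and 2 multiple disease, and the comparison of the lineages holds all of them. Each animal is 1 library, the litters are not given, and animals of a lineage may be related. The treatment tag of all 16 control lineage animals is Atrazine and that of 13 atrazine lineage animals, M57 to M69, is DMSO, whereas title and lineage tag are the same as each other and were followed. The counts hold no marker of a cell type, so the purity of the sperm could not be checked.

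Totals were between 19909382 and 239635003 reads. At the smallest total and the smallest median that the rule admits, a window has 8 reads, and an animal is low with fewer than 1.6 reads. Of the 16 animals with fewer reads, 4 were control lineage and 12 atrazine lineage. These animals had no part in the choice of the windows.

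A few libraries stood apart. The control lineage animals M13 and M17 were low in 816 and 1790 of the 2767 windows, and the atrazine lineage animals M19, M22 and M42 in 568, 625 and 1975. The other 45 animals of that depth were low in 26 to 243 windows, with a median of 89. Over all 2300413 windows with the required median, M42, M17, M19, M22 and M13 were below 20% of the median in 3.04%, 1.35%, 0.373%, 0.226% and 0.109%, and the other 45 in 0.00270 to 0.30%. The 5 libraries held 56.1% of all low values of the animals that chose the windows. Their most frequent combination was M13, M17 and M42, with 525 windows low in these 3 and in none of the other animals that chose the windows. Of all windows, 1108 were low in none of the other 45 animals, 1037 in 1 or 2 of them and 622, or 22.5%, in at least 3. Among the animals of smaller depth, M28 and M48 were low in 448 and 1207 windows, and in 5.03% and 27.2% of all windows with the required median.

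**Figure D1:**
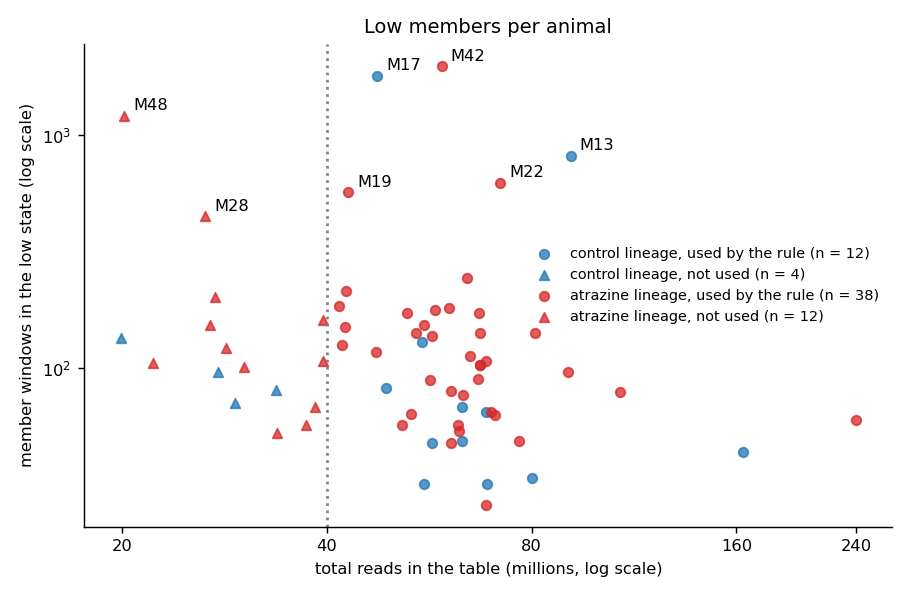
Number of the 2767 windows in which each animal was low, plotted against its total reads, with the control and atrazine lineages marked. M13, M17, M19, M22, M42 and M48 lie above 500 windows, and M28 lies at 448.

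When the rule was applied again without M13, M17, M19, M22 and M42, 569 of the 2767 windows were chosen again. These 569 windows are called shared windows below, since other animals share their low state. Their median level was 0.239 RPM, below the 0.351 RPM of the windows that were not chosen again and the 0.383 RPM of all windows with the required median. Windows that stood alone were mostly lost, with 278 of 2363 chosen again. In runs of at least 3 neighbouring windows 183 of 220 were chosen again.

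Most windows lay close to the limits of the rule. Exactly 3 animals were low in 2147 windows, or 77.6%, whereas 101 windows had at least 10 low animals and the most had 16. The windows just inside the limit were chr5:53217001-53218000, chr10:67773001-67774000 and chr5:84991001-84992000. The animal ranked 3 from the lowest was just under 0.2 of the median. Just outside it were chr5:71676001-71677000, chr6:143336001-143337000 and chr2:5108001-5109000. That animal was between 0.15 and 0.2 of the median in 1751 windows and between 0.2 and 0.25 in 5330, so that no gap separated the windows from the rest at this limit.

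The 2767 windows formed 2503 runs. Of these, 2363 were single windows, 92 held 2 windows and 48 held at least 3, up to 11 windows. The 48 runs of at least 3 windows contained 220 windows, or 7.95%. Over these runs the reads of each animal were summed and divided by the sum of the medians. An animal below 0.2 was called low over the run, one from 0.2 to 0.7 middle, and one above that usual.

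Low and middle values over the runs were about as frequent as each other, with a dip between 0.3 and 0.5 of the usual level. In the 45 libraries of sufficient depth that did not stand apart, 190 of 2160 values were below 0.1 of the usual level and 71 were between 0.1 and 0.2, which makes 261 low values against 240 middle ones. In the dip 25 were between 0.3 and 0.4 and 27 between 0.4 and 0.5, after which the number rose to 188 between 0.9 and 1.0. The low side of this shape was favoured by the rule. It also bears on the middle values, since an animal low in only part of a run's windows can sum to a middle value. In chr5:132826001-132830000, for example, 4 animals were low and 20 middle, and neighbouring windows shared a mean of 17.9% of their low animals.

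**Figure D2:**
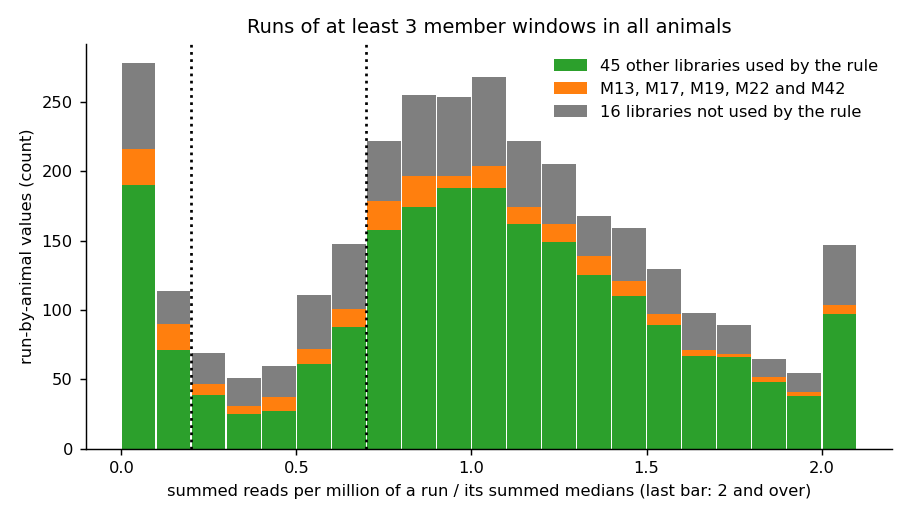
Number of animal-by-run values against the summed reads of the run divided by the summed medians, for the 48 runs of at least 3 windows. Values are few between 0.3 and 0.5, with 25 and 27 values in these bins of the 45 libraries that did not stand apart, and more frequent on both sides.

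The animals that the rule had not used were also low in the same windows. Without M28 and M48, the 14 remaining animals were low in 3.91% of their values in the 2767 windows, with 1.92 to 7.30% per animal. In the windows that are no members they were low in 1.08%, with 0.324 to 2.66%. In the shared windows they were low in 11.3%, with 5.27 to 22%, and in the windows that depended on the 5 libraries in 2.00%. With M28 and M48 included, the values were 7.16% in the 2767 windows, 13% in the shared windows and 2.96% in the windows that are no members. Of the 48 runs, 31 were low in at least 1 of the 14 animals, and 11.0% of their values over the runs were low, against 12.1% in the 45 libraries. These animals had smaller totals, and the windows differed in level. The median level was 0.329 RPM in the 2767 windows and 0.239 RPM in the shared windows, against 0.383 RPM in all windows with the required median. The shares were not matched for level, and the part of depth and level in the low values was not tested.

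The longest runs lay on few chromosomes. On chromosome 8, 3 of the 8 longest runs stood close to each other, at chr8:4298001-4309000, chr8:4316001-4323000 and chr8:4324001-4335000. The first was low in 8 animals, 1 control and 7 atrazine lineage, the next in 7 and the last in 4. Of these, M17, M19 and M22, which stood apart, were 3 in each run. Without the 5 libraries, 10 of 11, 7 of 7 and 4 of 11 windows were chosen again. The summed level of the first was between 0.316 and 8.57 RPM in the control lineage, with a median of 4.32, and between 0.320 and 10.4 RPM in the atrazine lineage, with a median of 4.40. The lineages overlapped over almost their whole range there.

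On chromosome 5, the run chr5:132703001-132712000 of 9 windows was low in 19 animals, all of the atrazine lineage. The control lineage animals had summed levels from 1.90 to 5.70 RPM with a median of 3.17, and the atrazine lineage animals from 0 to 7.01 RPM with a median of 2.30. No control animal was low, and the usual atrazine animals reached above the highest control animal. The 19 low animals had 0 to 0.139 RPM, 4 animals were middle with 0.595 to 1.90 RPM, and the other 43 had at least 2.22 RPM. The low animals comprised 6 without disease, 1 lean, 2 with kidney disease, 2 with testis disease, 3 with late puberty and 5 with multiple disease, and 5 of them had the DMSO tag. Low were 19 of 50 atrazine lineage and 0 of 16 control lineage animals, in a run that the rule had selected on its low values. The next run, chr5:132713001-132716000, was low in 20 atrazine lineage animals and in no control animal, the most of all runs. The smallest p of the lineage comparison over the windows of these runs was 0.0963 and 0.0874 by edgeR's quasi-likelihood test, before adjustment. Thus the difference in the number of low animals did not come with a call between the lineages in any of these windows.

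The low state on chromosome 5 went past the ends of the run. Of 50 neighbouring windows, 43 were also low in the low animals. Another 6, next to each other, were at least at 0.7 of the usual level inside this low stretch. Of the 43 windows, 34 were no members, because their median was under 0.2 RPM. Around the runs of chromosome 8, 16 to 22 neighbouring windows were low in the low animals, but only 0 or 1 of them per run was no member. Nearly all of these windows had thus been chosen by the rule for low values. In contrast, the runs chr2:15642001-15645000 and chr18:29847001-29850000 had no neighbouring window that was low in the low animals. Around each of them, 12 of the 50 windows had under 0.05 RPM even in the usual animals, so the low state could not be followed there, and in 37 and 35 of the others the low animals were at least at 0.7 of the usual level.

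**Figure D3:**
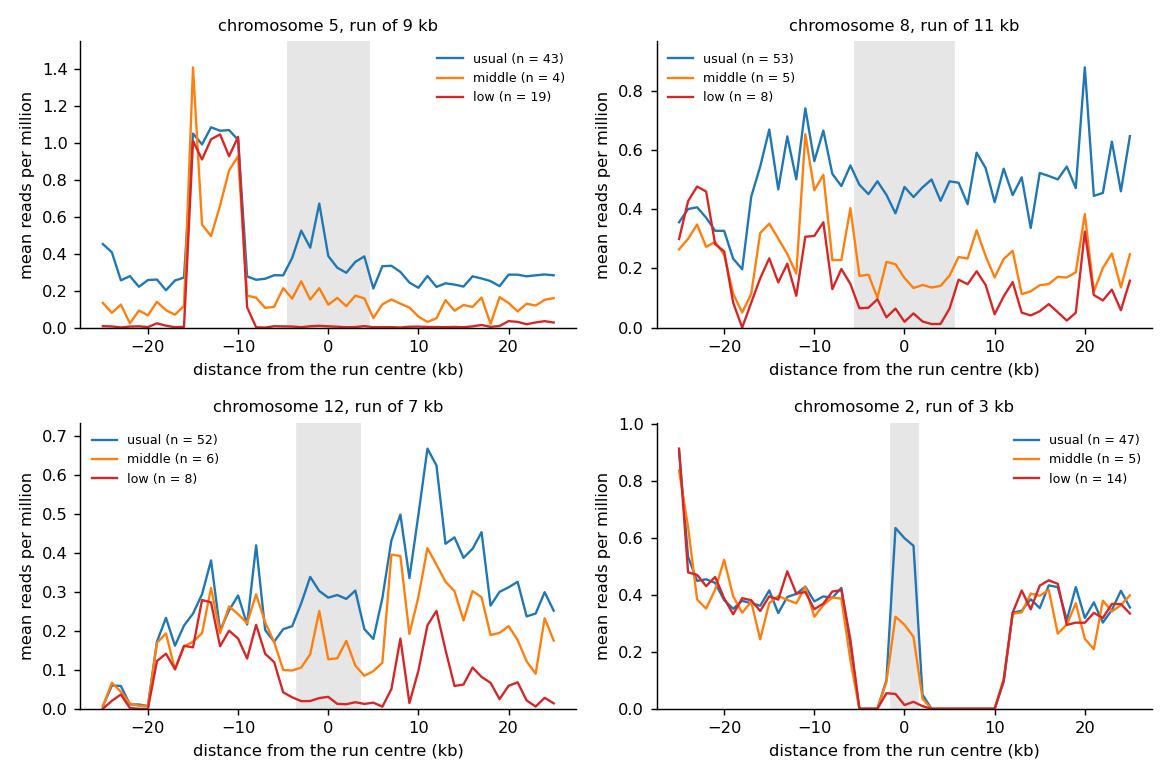
Mean RPM per window of 1000 bp against the distance in kb from the centre of selected runs, for low, middle and usual animals. The run is shaded. On chromosome 5 the low animals stay near 0 past the run except over 6 windows at the usual level, whereas on chromosome 2 all animals are near 0 beside the run and alike farther out.

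On chromosome 12, the runs chr12:20649001-20656000 and chr12:20666001-20674000 were low in 8 and 4 animals, all of the atrazine lineage, of which 6 and 2 had no disease. In the first run the control animals were between 1.43 and 3.23 RPM with a median of 2.51, and the atrazine lineage animals between 0.0599 and 3.45 RPM with a median of 1.41. In the second run the control animals were between 2.47 and 3.98 RPM with a median of 3.32, and the atrazine lineage animals between 0.0960 and 5.65 RPM with a median of 2.19. In both runs the ranges overlapped and all control animals were above every low animal. Between the lineages 7 of 7 and 7 of 8 of their windows had an unadjusted p below 0.05 by edgeR's quasi-likelihood test. Of all windows tested 6.24% did. Neighbouring windows of a run share low animals, so these are not separate results. The smallest p by this test was 0.00325 and 0.000977, and none was called. The window chr12:20660001-20661000 between the runs was called, with a log2 fold change of -0.65 (SE 0.16) and an adjusted p of 0.708, and was low in M25, M32 and M68 of the atrazine lineage. At 20660001 to 20668000 the study's positions list RGD1561730 and RGD1560281, and 4 of the windows overlap them. The other 2 of the 8 longest runs were chr2:135530001-135538000, low in 4 atrazine lineage animals of which 3 were lean, and chr5:26011001-26019000, low in 1 control and 4 atrazine lineage animals.

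Shared windows lay close together. Joined over gaps of up to 50000 bp, 18 clusters of at least 5 windows held 239 of the 569 shared windows, or 42%. The largest was chr5:132408001-132885000 with 59 windows, followed by chr8:4286001-4418000 with 31, chr12:20649001-20682000 with 22 and chr1:62973001-63122000 with 15. Within a run, neighbouring windows had a median of 72.7% of their low animals in common.

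Runs near each other shared more of their low animals than runs far apart. In 36 pairs of runs within 500 kb, a median of 57.1% of the animals low in either run were low in both. The range was 20 to 100%, and 27 pairs reached at least 50%. Most of these pairs were among the runs from 132682001 to 132999000 of chromosome 5 or among those from 20649001 to 20799000 of chromosome 12. These stretches thus count many times. In 56 pairs farther apart on 1 chromosome the median was 5.13%, and in 1036 pairs on different chromosomes it was 5.00%, with no shared animal in 431. A few pairs on different chromosomes were exceptions. The run that starts at 62995001 of chromosome 1 and the run chr8:4298001-4309000 were low together in 8 of 10 animals, or 80%, and 11 such pairs reached at least 50%. Of these 8 animals, M17, M19 and M22 are libraries that stood apart. Without the 5 libraries the pair was low together in 5 of 6 animals, and 6 pairs on different chromosomes reached 50%. In the pairs within 500 kb the median then was 57.1% again, with 0 to 100%.

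**Figure D4:**
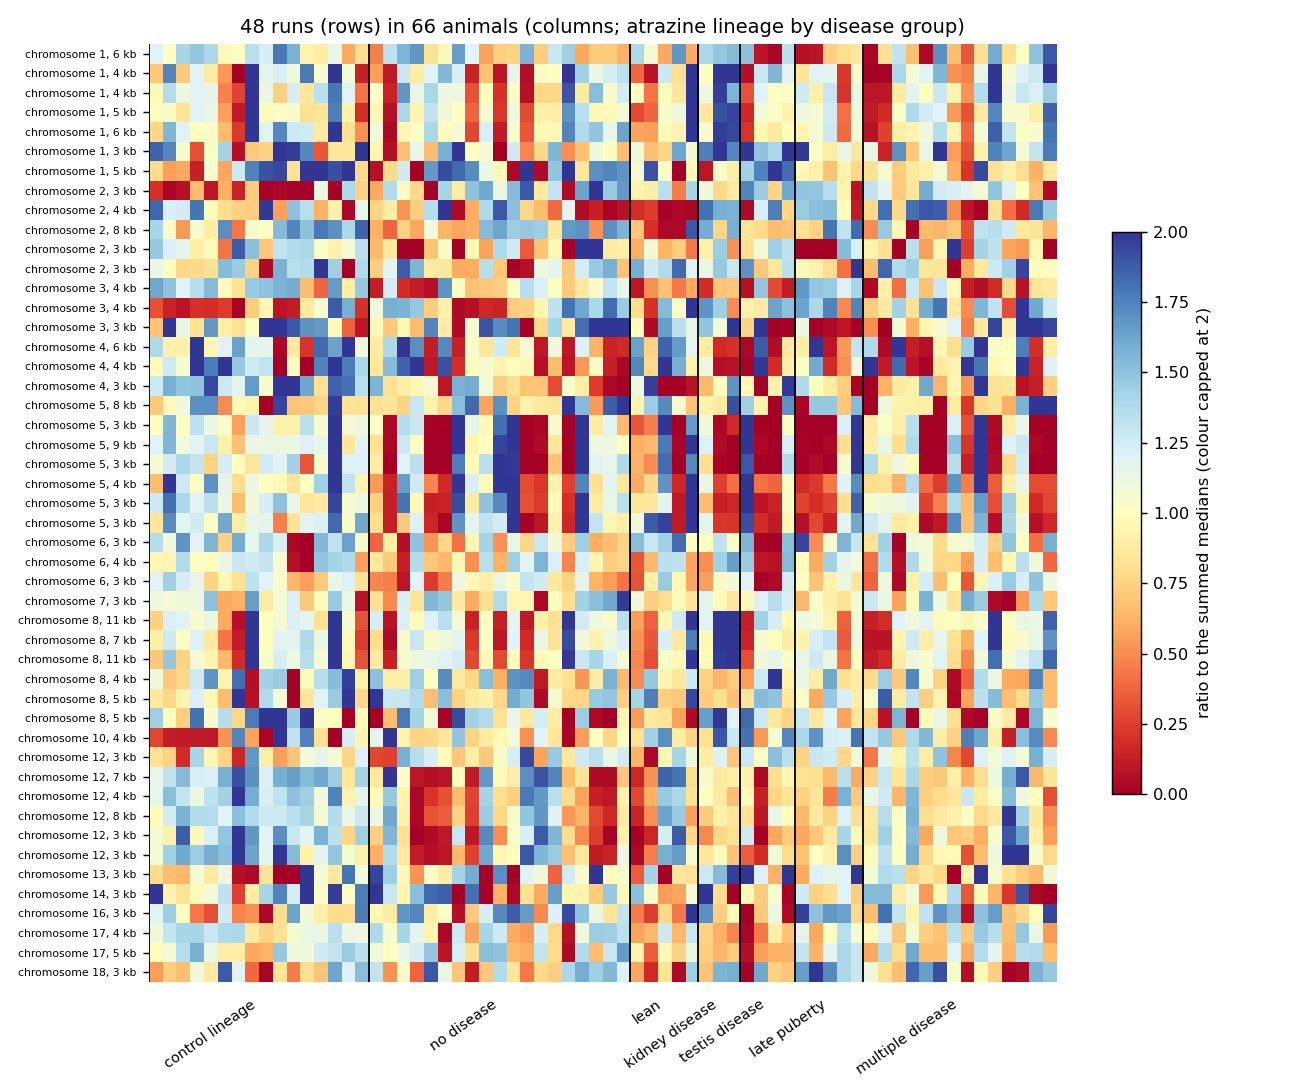
Summed reads of each of the 48 runs of at least 3 windows divided by the summed medians, as a colour scale, in each of the 66 animals. The control lineage animals stand together, and the atrazine lineage animals are ordered by disease group. Neighbouring runs of a chromosome share part of their low animals, and low states occur in every disease group.

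Low runs occurred in both lineages and were more frequent in the atrazine lineage. Over the 48 runs, 7.42% of the control values and 14.0% of the atrazine values were low. Neighbouring runs that share low animals count separately in these shares. The runs from 132682001 to 132999000 of chromosome 5 were each low in 4 to 20 atrazine lineage animals and in no control animal. Those from 20649001 to 20799000 of chromosome 12 were each low in 4 to 8 and in no control animal. The shares without these stretches were not computed. Without the 5 libraries that stood apart, the values were 6.40% and 13.5%. A control animal had 0 to 10 low runs with a median of 3, and an atrazine lineage animal 0 to 15 with a median of 6. In the shared windows the control animals were low in 17 to 88 with a median of 35, and the atrazine lineage animals in 15 to 187 with a median of 72. The lineages overlapped in each of these counts. Of the 50 animals that chose the windows, 38 were of the atrazine lineage and 12 of the control lineage, so the rule drew more on the former, and no test was made.

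By run, 26 were low in animals of both lineages, 22 in atrazine lineage animals only and 0 in control animals only. There were 50 atrazine and 16 control lineage animals, and a run with few low animals can miss the smaller group. The split that these group sizes alone would give was not computed. The 22 runs include those of the stretches of chromosomes 5 and 12 given above, which share part of their low animals. They are thus not 22 separate results. The 22 runs were low in 3 to 20 animals with a median of 7. In 15 of them a control animal was middle, in 16 an animal with the DMSO tag was low, and in 20 an animal without disease was low. Pairs of atrazine lineage animals shared a mean of 1.28 low runs, with up to 9 for M32 with M33 and M32 with M39. Pairs of control animals shared 0.75, and pairs across the lineages 0.338.

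Low runs occurred with and without disease. In the atrazine lineage, 14.7% of the values were low in the animals without disease and 13.5% in those with disease. Of the 48 runs, 44 were low in at least 1 atrazine lineage animal without disease, and 4 were low in atrazine lineage animals with disease only. In 2 of these 4 a control lineage animal was low too. The share was 12.5% in the lean, 9.72% in the kidney disease, 22.9% in the testis disease, 11.7% in the late puberty and 12.6% in the multiple disease animals. The 4 testis disease animals M29, M32, M33 and M41 had 12, 15, 13 and 4 low runs, and the animals without disease had 0 to 14. Thus M32 was above the range of the animals without disease and the other 3 were inside it.

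The comparison of the lineages asked which windows differ between 50 atrazine and 16 control lineage animals. A window was called at an unadjusted p below 0.0001 by edgeR's quasi-likelihood test, fitted over all windows with enough reads, and Benjamini-Hochberg adjustment was over all of these. Of the 2767 windows, 7 were called, 5 higher and 2 lower in the atrazine lineage, where 0.0133% of all windows tested were called. All 7 were shared windows. Without M28 and M48, 22 members were called, 10 higher and 12 lower, where 0.0340% of a random sample of 200000 windows were called, against 0.0125% of that sample with these animals. At a p below 0.05, 164 of the 2767 windows passed, or 5.93%, against 6.24% of all windows, with 52 higher and 112 lower. Without the 5 libraries that stood apart, 423 passed, or 15.3%, against 8.31% of a random sample of all windows. Of the 569 shared windows 109 passed, or 19.2%. The rule did not use the lineage, and these shares are given as a description.

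The only member with an adjusted p below 0.05 was chr2:15642001-15643000, of the run chr2:15642001-15645000. Over the run the control animals had 0.0292 to 2.01 RPM with a median of 0.175, and the atrazine lineage animals 0.0180 to 3.33 RPM with a median of 1.73. Low were 10 of 16 control animals and 4 of 50 atrazine lineage animals. The run was named for holding this p, so these counts add no support to it. The groups overlapped, since both held low and usual animals. In the window the log2 fold change was 1.81 (SE 0.29) with an adjusted p of 0.0235, and the other windows of the run were called as well. The window was called in all 5 other edgeR fits tallied for it, with log2 fold changes of 1.34 to 1.86. Among them were those of animals without disease only and without the animals tagged DMSO. The DESeq2 result for this window was not tallied. DESeq2 called 3 members between the lineages, where 0.0453% of random windows were called. Of these 3, 2 lay in runs of at least 3 windows, so not every window of this run kept its call. The run chr3:27126001-27130000, chosen after its values were seen, had a similar make-up, with 6 of 16 control and 4 of 50 atrazine lineage animals low. In the run chr10:5730001-5734000, 6 control and 2 atrazine lineage animals were low. Its window chr10:5732001-5733000 was called, with a log2 fold change of 1.31 (SE 0.30) and an adjusted p of 0.637 by edgeR's quasi-likelihood test. The member with the smallest p among those lower in the atrazine lineage was chr17:62150001-62151000. Its control animals had 0.10 to 0.537 RPM with a median of 0.303, and its atrazine lineage animals 0 to 0.511 RPM with a median of 0.178. Low were 16 atrazine lineage animals and no control animal, and the log2 fold change was -1.15 (SE 0.27) with an adjusted p of 0.698. Without the 5 libraries that stood apart the log2 fold change was -1.04, and at a p of 0.000403 by edgeR's quasi-likelihood test it was not called. DESeq2 called 0 members lower in the atrazine lineage.

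The disease comparisons set the atrazine lineage animals of each disease against the same 17 without disease, so that they share these animals. M59 and M68, which also have no disease, have no columns in the deposited tables of these comparisons and were left out. With 5 lean animals, 8 of 2547 windows tested were called, all lower, where 0.0401% of all windows were called. Of these 8, 3 were shared windows. The others depended on the 5 libraries that stood apart and were all low in the lean animal M42, which had part in choosing them. Their lower direction is thus no separate support. At a p below 0.05, 647 passed, or 25.4%, against 11.4% of all windows and 7.91% of the shared windows. Without M42, 179 of 2589 passed, or 6.91%, where 6.91% of a random sample of all windows did. The lean animals include M42, which stood apart, and M28. The count was 4 without M42, 5 without M28, 13 without M54 and 40 without M66. In the random sample the share called moved with it, at 0.0125%, 0.0175%, 0.101% and 0.144%, against 0.0360% with all 5 animals. At chr3:74576001-74577000, listed with Olr532 and Olr533, of the olfactory receptor family, M28 had 0, M42 0.0339, M54 0.198, M56 0.182 and M66 0.236 RPM. The animals without disease had 0.262 to 0.740 RPM with a median of 0.360. The groups did not overlap, but only M28 and M42 of them were low. In the control lineage 2 animals were low too, the lowest with 0.0110 RPM. The log2 fold change was -1.56 (SE 0.34) with an adjusted p of 0.239, and it was not called without M28 or M42, with log2 fold changes of -1.36 and -1.23. The windows at chr2:76071001-76074000, which overlap a U1 position, were low in M54, M56 and M66, and also in the animals without disease M40, M65 and M69. At chr2:76072001-76073000 all 5 lean animals were low, and so were 4 of the 17 without disease, M40, M65, M67 and M69. Over the whole run of 4 windows 15 animals were low, 4 of them lean, 5 without disease, 5 of other disease groups and 1 of the control lineage. Without M54 or M56, 0 members in runs of at least 3 windows were called in lean, where 0.101% and 0.0545% of the random sample were called.

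With 3 kidney disease animals, 4 of 2700 windows were called, 1 higher and 3 lower, where 0.00235% of all windows were called. At a p below 0.05, 192 passed, or 7.11%, against 2.77% of all windows, and 20.4% of the shared windows, with 135 of all members higher and 57 lower. The count of called windows was 0 without M60, 2 without M64, 8 without M23 and 10 without M22, the library that stood apart among the animals without disease. In the random sample 0.003%, 0.001%, 0.001% and 0.006% were called, against 0.0005% with all animals. The direction turned in the last 2 cases, with 5 of 8 and 7 of 10 higher. Without M64, 4.30% of the members passed 0.05, against 1.94% of the random sample. With 4 testis disease animals, 4 of 2704 were called, 3 higher and 1 lower, where 0.00533% of all windows were called, and 157, or 5.81%, passed 0.05, against 3.65% of all windows and 9.25% of the shared windows. Without M32 it was 10 called windows, of which 7 were lower, and without M41 it was 2, where 0.003% and 0.0045% of the random sample were called, against 0.007% with all animals. The window chr1:66074001-66075000 was higher in both. M23, M60 and M64 with kidney disease had 0.919, 0.696 and 0.423 RPM, and M29, M32, M33 and M41 with testis disease had 0.842, 0.554, 0.633 and 0.808 RPM. The animals without disease had 0.0139 to 0.599 RPM with a median of 0.264, and M22 and M46 were low. The log2 fold changes were 1.41 (SE 0.31) and 1.43 (SE 0.27), with adjusted p of 1 and 0.620. In kidney disease the window was not called without M23 or M60, with log2 fold changes of 1.16 and 1.42, whereas the testis disease call of this window was kept without each testis disease animal in turn. DESeq2 called 0 of 2704 members in testis disease, where 0.005% of random windows were called. In both comparisons the low animals were animals without disease, and the groups overlapped. At chr16:17161001-17162000, the lower window of testis disease, M29 had 0, M32 0.105, M33 0.253 and M41 0.0391 RPM, and the animals without disease 0.0353 to 0.49 RPM with a median of 0.310. Low were M29 and M41, and M40 and M55 of those without disease. The log2 fold change was -1.84 (SE 0.42) with an adjusted p of 1.00. Without M29, M32 or M41 it was not called, with log2 fold changes of -1.43, -1.96 and -1.53, and without M33 the log2 fold change was -2.61. At chr18:62379001-62380000 the kidney disease animals had 0.115, 0.0557 and 0 RPM, and those without disease 0 to 0.501 RPM, with a log2 fold change of -2.26 (SE 0.48) and an adjusted p of 1. Without M60 or M64 it was not called, with log2 fold changes of -2.05 and -2.0.

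With 5 late puberty animals, 10 of 2702 windows were called, all lower, where 0.00355% of all windows were called. At a p below 0.05, 153 passed, or 5.66%, against 3.49% of all windows, with 94 higher and 59 lower, and 11.0% of the shared windows. The count of called windows was 5 without M38, 6 without M50, and 14 without M22, of which 4 were higher. In the random sample 0.003%, 0.004% and 0.0095% were called, against 0.0045% with all animals. Of the 10 called, 8 lay within 2722 kb at chr3:87326001-90048000, which held 19 members among 2409 windows of the rule. These were all the windows called there, and the limits of the stretch are set by them. All 8 were shared windows. DESeq2 called 2 members in late puberty, where 0% of random windows were called. Of these, 1 was a shared window, so most of the 8 were not called by it. Without the animals tagged DMSO 4 members were called, 3 of them shared windows, where 0.0035% of the random sample were called. At chr3:87809001-87810000, M35 had 0.152, M36 0.0185, M38 0.0150, M50 0 and M51 0 RPM. The animals without disease had 0 to 0.536 RPM with a median of 0.264. Low were 4 of 5 late puberty animals, and M40 and M53 of those without disease. The log2 fold change was -3.14 (SE 0.55) with an adjusted p of 0.226, and the window was called without each late puberty animal in turn, with log2 fold changes of -4.73 without M35 and -3.03 to -2.80 without each of the others.

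In this stretch of chromosome 3, 11 animals were low in at least 4 of the 8 called windows. They were M36, M38, M50 and M51 with late puberty, M40 and M53 without disease, M21, M33, M41 and M42 of other disease groups, and the control animal M9. The windows between them, which are no members, were at their usual level in these animals, with a median of 0.979 of it, against 1.00 in the other animals. The low windows were thus scattered over the stretch, and the animals low in them were largely the same. The fifth late puberty animal, M35, was low in 0 of the called windows of this stretch.

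With 14 multiple disease animals, edgeR's quasi-likelihood test called 0 of 2645 windows, where 0.00137% of all windows were called, and DESeq2 called 0. At a p below 0.05, 65 passed, or 2.46%, against 3.33% of all windows. Without M48 the share was 5.06%, against 3.90% of the random sample, and 0 were called. The windows with the smallest p were chr14:56891001-56892000, higher with a log2 fold change of 0.55 (SE 0.17), and chr3:73334001-73335000, lower with -0.68 (SE 0.21), both with an adjusted p of 1.00.

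**Figure D5:**
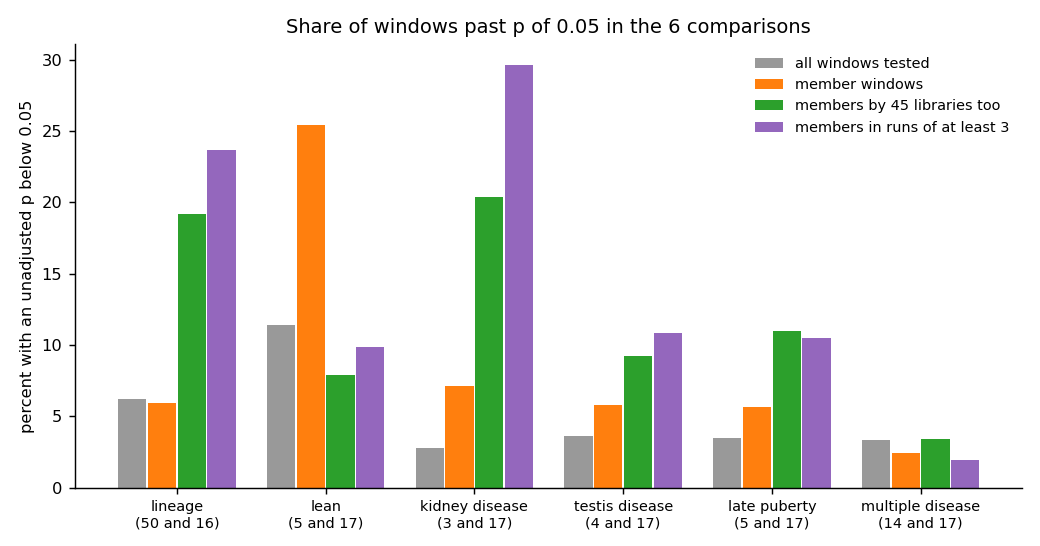
Percent of windows with an unadjusted p below 0.05 in the 6 comparisons, for all windows tested, all members, shared windows (members by 45 libraries too) and members in runs of at least 3, with the animals per group under each name. The shared windows are above all windows in the lineage comparison with 19.2% and in the kidney disease comparison with 20.4%, and all members reach 25.4% in the lean comparison, which is 6.91% without M42. In testis disease and late puberty the shared windows are above all windows too, with 9.25% and 11.0%.

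The members made up a small share of the windows called in each comparison. They were 2.12% of the 330 called between the lineages, 0.832% of 962 in lean, 6.90% of 58 in kidney disease, 3.05% of 131 in testis disease, 11.5% of 87 in late puberty and 0 of 33 in multiple disease. Members were about 0.11% of the windows tested. Over the 6 comparisons there were 33 calls in 32 members, of which 24 were lower, 24 were shared windows, 14 were in runs of at least 3 windows and 11 were single windows. Most of the windows called in each comparison were thus no members.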

How the data were processed

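Histone H3 ChIP-Seq had been carried out on the sperm of F3 generation rats. The counts deposited by the authors are whole reads per window of 1000 bp for each animal, without normalization, mapped to Rnor 6.0. Trimmomatic, FastQC, Bowtie2, SAMtools and edgeR are named in the submitters' processing notes. The antibody used for the counts is not named in the tables. The authors' comparison columns (fold changes and p-values) and RPKM columns were not used, and the DNA methylation data were not analysed here. There was 1 library per animal.

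The members, the run definitions and the lists were chosen with earlier results of these data known. Named windows and runs are the 8 longest runs, for each comparison the higher and the lower member of smallest p with its run, the runs with the most low animals, with the most low atrazine and no low control animals, and the windows next to the threshold. No run was low in control animals only, and the runs with the most low control animals were added after the values were seen. Genes are named by the positions in the study's tables.

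A window was tested where the animals of a comparison averaged 10 or more reads, with edgeR 4.0.16 in R 4.3.3. The quasi-likelihood test was used with TMM normalization, a dispersion trend from a random sample of 200000 windows and Benjamini-Hochberg adjustment over all windows tested. A window was called at an unadjusted p below 0.0001. RPM values use the table totals. Alternatives were fitted on the members and that sample, and DESeq2 1.42.0 on the members and 20000 random windows. Python 3.11.15 with NumPy 2.4.6, pandas 2.3.3 and SciPy 1.17.1 was used for the runs. The fit and the rule were tested on simulated data. Groups followed the title and lineage tag where the treatment tag contradicted them. P-values measure the spread between animals of 1 generation, and which animals shared a sequencing lane or batch is not given in the sources used here.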

Additional observations from a re-analysis of the deposited data

Results flagged for a closer look

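In 64 sets of values, 8 had 1 animal far from the others by Dixon's 95% critical value, which about 1 in 20 sets would pass by chance. A set held 1 count or 1 run in 1 group of 4 to 10 animals, so the same groups recur. The share of 1 in 20 does not apply here, because the windows were chosen for low values of these same animals. The values are a description. Of the 8 sets, 2 concern the number of low windows. Among the control lineage animals without disease M13 was low in 816 windows and the others in 32 to 130. Among the lean animals M42 was low in 1975 and the others in 53 to 448.

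The others concern summed RPM of a run. In chr8:4324001-4335000 the testis disease animal M29 had 1.42 RPM, and the others 4.94 to 5.52. In chr8:4298001-4309000 the late puberty animal M50 had 1.48 RPM, and the others 3.77 to 4.51. In chr3:27126001-27130000 M50 had 0.489 RPM, and the others 1.39 to 1.74. In chr12:20649001-20656000 the testis disease animal M32 had 0.0599 RPM, and the others 1.34 to 1.60. A high value stood apart in the other runs. In chr5:132703001-132712000 the control animal M12 had 4.32 RPM, and the others without disease 2.39 to 3.31. In chr16:17159001-17162000 the lean animal M66 had 1.63 RPM, and the others 0.186 to 0.594.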

How the results depend on the processing

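The number of windows depended on the rule. It was 4111 for totals of at least 30000000 reads, 868 for totals of at least 50000000 reads, 426 below 0.1 of the median, 325 with at least 5 low animals, 1568 with a median of at least 0.3 RPM and 678 without M13, M17, M19, M22 and M42, which was chosen after seeing the data. Runs of at least 3 windows were 25 with at least 5 low animals and 10 with a median of at least 0.3 RPM, and 36 to 65 under the other settings. Called windows between the lineages were 3 by DESeq2, 3 with a mean of at least 20 reads, which left 1280 windows to test, and 22 without M28 and M48, where 0.0453%, 0.017% and 0.034% of random windows were called. By DESeq2, kidney disease had 2, testis disease 0 and late puberty 2, where 0%, 0.005% and 0% of random windows were called. With a mean of at least 20 reads, 0 were called of the 225 windows tested in lean, 1061 in kidney disease, 1010 in testis disease and 945 in late puberty. There 0.0325%, 0.0015%, 0.0065% and 0.006% of random windows were called, so that few calls could be found among so few members. In lean there were 5 without M28 and M48, 5 without the 5 libraries and 21 without the animals tagged DMSO, where 0.0175%, 0.088% and 0.058% of random windows were called. Kidney disease had 10 without the 5 libraries, testis disease 2 and late puberty 4 without the animals tagged DMSO. In these fits 0.006%, 0.007% and 0.0035% of random windows were called. In runs of at least 3 windows alone there were 3 of 213 in lean, 1 of 206 in kidney disease, 2 of 212 in testis disease and 3 of 209 in late puberty. Of all windows 0.0401%, 0.00235%, 0.00533% and 0.00355% were called. These counts in runs moved to 0 in lean without M54 or M56 and to 5 without M66. In kidney disease they were 6 without M23 and 0 without M60 or M64. In testis disease they were 5 without M32 and 0 without M41, and in late puberty 1 without M50 or M51. Leaving out 1 disease animal at a time gave 4 to 40 in lean, 0 to 8 in kidney disease, 2 to 10 in testis disease and 5 to 10 in late puberty. The share called in a random sample of all windows then ran from 0.0125 to 0.144%, 0.001 to 0.003%, 0.002 to 0.0045% and 0.0015 to 0.004%. At a p below 0.05 members were 0.106% of called windows between the lineages, 0.237% in lean, 0.282% in kidney disease, 0.175% in testis disease and 0.179% in late puberty. The cause of these changes was not tested. No direction of a named window was reversed in the fits tallied. Over the alternatives of the named windows that were called, the call was lost in 15 cases and kept in 44. The named windows that were not called stayed so in 29 of 29 cases. These were edgeR fits with other size factors or other animals. Among them were kidney disease fits without the animals tagged DMSO, which left 1 kidney disease animal. The DESeq2 test and the fits with other read filters were not tallied by window. DESeq2 called 0 members in testis disease and 0 lower members between the lineages, so the windows named for these lost their calls. Windows near 8 reads have a large counting error, which limits single windows more than runs. No paired analysis was possible because the groups hold different animals that the labels do not pair.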
